A study of Mus musculus with 4 samples.

Results

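NF-kB genes were followed in regulatory T cells (Tregs) sorted from omental tumors and from spleens of the same mice. The set held 10 genes picked by symbol. Of these, 5 encode the DNA-binding subunits (Nfkb1, Nfkb2, Rel, Rela and Relb) and 5 encode IkB-type proteins or the editing enzyme A20 (Nfkbia, Nfkbiz, Nfkbid, Tnfaip3 and Bcl3). All 10 were among the 24421 genes of the count files, and all 10 passed the filter on low counts, which left 16322 genes for testing. The omental tumor group was Tregs from the tumors of mouse 2 and mouse 3, and the spleen group was Tregs from the spleens of the same 2 animals, at day 14 in both. Each animal was a CD45.1+ mouse given 3000000 EG7.1.15 tumor cells into the peritoneal cavity and joined by surgery to a tumor-free CD45.1- partner. The sorted Tregs came from that partner and are labelled with the strain B6 Foxp3-DTR/GFP, in which green fluorescent protein reports Foxp3. They were gated as live CD45.1-, CD45.2+, B220-, CD4+, CD25+ and GFP+ cells. The spleens belonged to tumor-bearing mice, so no library comes from a mouse without a tumor in its own body or in its joined partner. No age is stated in the labels.

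NF-kB proteins act as dimers of the 5 subunits. In resting cells IkB proteins such as the Nfkbia product hold Rel and Rela dimers in the cytosol. Signals from the T cell receptor, TNF-family receptors or interleukin-1 family receptors free them through the IkB kinase. The freed dimers switch on genes that include Nfkbia and Tnfaip3, whose products restrain the pathway again. The products of Nfkbiz, Nfkbid and Bcl3 are nuclear IkB proteins, which can help as well as restrain transcription. In Tregs, Rel is known for its part in switching on Foxp3 during development, and Rela for maintaining the mature cells.

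Because several members are known targets of NF-kB itself, their promoters are shown first. RefSeq promoter windows of 300 bases (250 before to 50 after the transcription start, build GRCm38.p6) were at hand for 7 of the 10 members, all but Nfkb1, Relb and Nfkbiz. The windows were searched on both strands for a narrow form of the NF-kB site, GGG followed by any 2 bases and then TTTCC, written down after the windows had been read, and for the general NF-kB consensus, which overlaps it. The first was found in 4 of these 7 members, Tnfaip3, Rel, Nfkbia and Nfkb2, and in 1.89% of all 27025 genes with a window. The consensus was found in 6 of 7, all but Rela, and in 9.55% of all genes with a window. A gene counted if any of its windows matched, and the 7 members had 12 windows. By window, the narrow form was in 6 of 12, against 1.63% of all 32851 windows. The consensus was in 8 of 12, against 8.46%. Overlapping Nfkb2 windows among these hold the same site. Tnfaip3 has another window, not shown, without a match. Shown here are the windows of the highest inhibitor gene, Nfkbia, of the 2 members with the largest omental to spleen differences among inhibitors and among subunits, Tnfaip3 and Rel, and of Rela, the member that stood lower. Capitals mark the narrow form, which reads on the opposite strand in the first 3 windows and therefore appears as its reverse complement. In Rela no capitals appear because these letters are not in its window. The windows lie at chr10:19015361-19015660 (minus strand, Tnfaip3), chr11:23770920-23771219 (minus strand, Rel), chr12:55492598-55492897 (minus strand, Nfkbia) and chr19:5637291-5637590 (plus strand, Rela).
Tnfaip3: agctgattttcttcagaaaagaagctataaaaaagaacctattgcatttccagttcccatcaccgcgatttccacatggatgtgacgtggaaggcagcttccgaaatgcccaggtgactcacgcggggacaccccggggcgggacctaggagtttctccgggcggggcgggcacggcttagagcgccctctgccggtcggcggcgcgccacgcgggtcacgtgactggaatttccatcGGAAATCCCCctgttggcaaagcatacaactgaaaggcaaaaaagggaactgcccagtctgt
Rel: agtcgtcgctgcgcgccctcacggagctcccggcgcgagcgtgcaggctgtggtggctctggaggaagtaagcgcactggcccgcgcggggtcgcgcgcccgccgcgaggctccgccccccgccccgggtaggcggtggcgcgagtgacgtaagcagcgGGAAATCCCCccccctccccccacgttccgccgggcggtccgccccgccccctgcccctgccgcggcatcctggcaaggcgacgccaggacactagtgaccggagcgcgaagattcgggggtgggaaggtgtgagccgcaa
Nfkbia: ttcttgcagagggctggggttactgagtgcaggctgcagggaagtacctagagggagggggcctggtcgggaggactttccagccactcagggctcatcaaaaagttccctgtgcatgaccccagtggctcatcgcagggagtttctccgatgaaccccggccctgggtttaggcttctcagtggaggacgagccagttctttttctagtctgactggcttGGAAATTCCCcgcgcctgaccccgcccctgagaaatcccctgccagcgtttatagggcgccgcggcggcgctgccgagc
Rela: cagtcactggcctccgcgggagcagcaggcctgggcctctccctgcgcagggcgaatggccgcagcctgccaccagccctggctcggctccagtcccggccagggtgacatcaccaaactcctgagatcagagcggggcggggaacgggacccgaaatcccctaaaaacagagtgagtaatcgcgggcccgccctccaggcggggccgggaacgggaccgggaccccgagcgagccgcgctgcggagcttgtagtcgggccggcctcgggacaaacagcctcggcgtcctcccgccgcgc
The match began 12 bases before the start in Tnfaip3, 91 bases before it in Rel and 29 bases before it in Nfkbia. Tnfaip3 and Rel carried the same 10 letters, GGGGATTTCC on the motif strand, against GGGAATTTCC in Nfkbia. Such a match describes the letters only, since no binding was measured here.

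The libraries held 6660230 and 3764508 gene counts in omental tumor, against 9989005 and 13598631 in spleen, for mouse 2 and mouse 3. Foxp3 stood at 81.4 and 84.3 CPM in omental tumor and at 113 and 144 CPM in spleen. CPM is the count scaled by library size and TMM factors. The sorted lineage was thus present in every library. The libraries of a tissue were uneven. In omental tumor, 8.11% of genes tested differed over 5-fold in favour of mouse 2 and 2.65% in favour of mouse 3. In spleen the shares were 14.5% for mouse 2 and 0.257% for mouse 3. Levels here and below are CPM scaled by TMM factors, given for mouse 2 and then mouse 3. In bulk libraries such as these, fewer cells expressing a gene and less RNA per cell cannot be told apart.

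Rel and the inhibitor genes Tnfaip3, Nfkbiz, Nfkbid and Nfkbia stood higher in omental tumor Tregs than in spleen Tregs, Rela stood lower, and none of the 10 members passed the test. In edgeR's quasi-likelihood test with Benjamini-Hochberg adjustment, 0 of 10 members were called at an adjusted p of 0.05, where 1.43% of all genes were called (1.16% higher, 0.263% lower). DESeq2 and limma-voom also called 0 of 10. With mouse as a block 0 of 10 were called as well, where 1.6% of all genes were (1.29% higher, 0.312% lower). Of the calls over all genes 81.5% were higher, a share that moved to 94.2% with upper-quartile factors, 92.9% with library totals, 57.9% in DESeq2 and 65.6% in limma-voom. At an unadjusted p under 0.05 there were 4 members in edgeR, Tnfaip3, Nfkbiz and Rel higher and Rela lower, against 10.2% of all genes (4.97% higher, 5.28% lower), and 4 each in DESeq2 and limma-voom. This count moved with the setting. It was 2 higher and 0 lower with the mouse block, and 6 higher and 0 lower with upper-quartile factors. Rela was not among the genes so marked with RLE factors or library totals either. Without omental mouse 2 it was 2, and without either spleen library 1. Both omental libraries stood above both spleen libraries for 6 members and below them for 1, together 7 of 10, where 41.8% of all genes tested had groups that did not overlap. The direction shares in all genes were 16.4% higher and 25.4% lower. The median log2 fold change was 1.30 over the 10 members and 0.126 over all genes tested. With 2 libraries per tissue the edgeR p-values rest on a spread pooled over genes, and a p above the threshold is no sign that levels were equal.

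**Figure D1:**
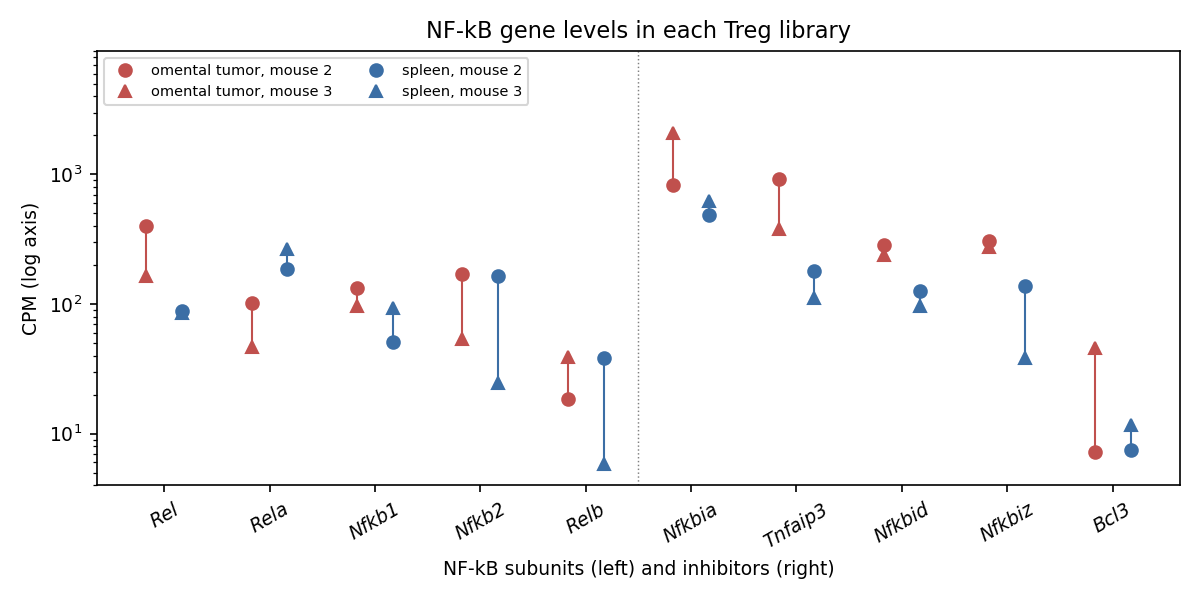
Levels of the 10 genes in CPM on a log axis, with omental tumor left of spleen for each gene, circles for mouse 2, triangles for mouse 3 and a line joining the libraries of a tissue. Rel, Nfkb1, Nfkbia, Tnfaip3, Nfkbid and Nfkbiz had both omental points above both spleen points, and Rela had both below.

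Among the subunits, Rel stood higher and Rela lower in omental tumor. Rel encodes c-Rel, the subunit most tied to lymphocytes (chromosome 11, 23736847 to 23770970 in build GRCm38). It stood at 403 and 166 CPM in omental tumor, against 89.1 and 84.8 CPM in spleen. Both omental values exceeded both spleen values, and the spleen libraries were nearly level. On the log2 scale the difference was 1.71 (SE 0.78, adjusted p = 0.409), and within the mice Rel stood 4.52 times higher in mouse 2 and 1.96 times higher in mouse 3. Rela encodes p65, the main transactivating subunit of the canonical pathway (chromosome 19, 5637483 to 5648130). Its levels were 102 and 46.3 CPM in omental tumor, against 186 and 268 CPM in spleen. Every omental value lay below every spleen value, and the fit gave -1.61 on the log2 scale (SE 0.77, adjusted p = 0.446). The omental to spleen ratio of Rela was 0.550 in mouse 2 and 0.173 in mouse 3.

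The ratio of Rel to Rela within a library does not depend on how libraries are scaled. Per kilobase of exon, Rel stood at 1.62 and 1.47 times the level of Rela in the omental libraries, and at 0.197 and 0.130 times its level in the spleen libraries. Rel was thus the more abundant of both in each omental library and the less abundant in each spleen library. The geometric mean ratio was 9.64 times higher in omental tumor, a log2 difference of 3.27. This ratio was chosen after the values were seen. Ratios of other members were worked out too. An exact two-sided permutation test on the Rel to Rela ratio gave p = 0.333. That is the smallest p that 2 libraries per tissue allow, so the test cannot decide. The ratio is given as a description.

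The make-up of the subunit transcripts differed in the same way. Exon length merges every annotated exon of a gene over all its transcripts, which gave 12061 bases for Nfkb1 and 3072 for Rela. The size of each share depends on that choice, and the share of Nfkb1 most of all. Of the summed level per kilobase of the 5 subunits, Rel accounted for 38.4% and 33.1% in omental tumor, against 9.75% and 10.0% in spleen. Rela accounted for 23.7% and 22.5% in omental tumor, against 49.4% and 77.1% in spleen. The Nfkb2 shares overlapped between tissues, at 26.6% and 17.5% in omental tumor, against 29.2% and 4.73% in spleen. The summed subunit level itself was 140 and 67.1 CPM per kilobase in omental tumor and 122 and 113 CPM per kilobase in spleen, so the groups overlapped.

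**Figure D2:**
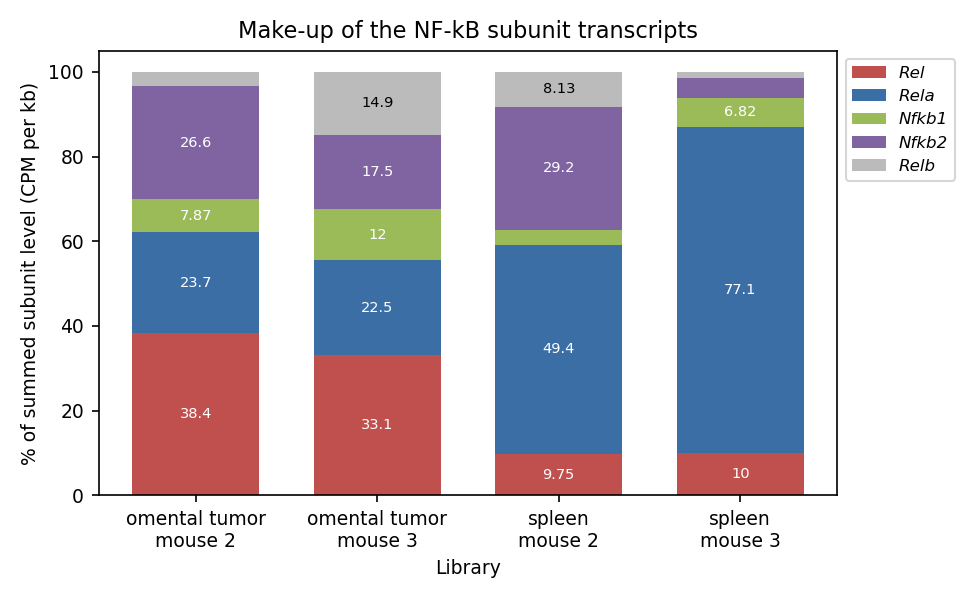
Share of each subunit gene in the summed subunit level (CPM per kilobase of exon, in percent) in the 4 libraries, omental tumor left of spleen. The Rel share is at least 33.1% in both omental libraries and at most 10.0% in both spleen libraries, while Rela takes 49.4% and 77.1% in spleen.

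The precursor subunits and Relb had smaller fitted differences than Rel and Rela. Nfkb1 encodes p105, which is processed to p50, the common partner of Rel and Rela (chromosome 3, 135584655 to 135691547). It stood at 133 and 97.5 CPM in omental tumor, against 51.0 and 93.0 CPM in spleen. Its groups did not overlap, but the mouse 3 libraries were 1.05-fold apart (log2 fold change 0.68, SE 0.74, adjusted p = 0.759). Leaving out a library moved the log2 fold change of Nfkb1 between 0.25 and 1.39. Nfkb2 encodes p100, the precursor of p52 in the non-canonical pathway (chromosome 19, 46304320 to 46312385), and had 171 and 53.9 CPM in omental tumor, against 164 and 24.5 CPM in spleen. Mouse 2 was the higher animal in both tissues, and the groups overlapped (log2 fold change 0.26, SE 0.73, adjusted p = 0.906). Relb, the partner of p52 (chromosome 7, 19606217 to 19629438), had 18.6 and 38.7 CPM in omental tumor, against 38.7 and 5.86 CPM in spleen. Its omental to spleen ratio was 0.482 in mouse 2 and 6.61 in mouse 3, so the animals pointed in opposite directions (log2 fold change 0.36, SE 0.78, adjusted p = 0.880). In the annotation the exons of Nfkb2 share 299 bases with Psd and 531 bases with AC114539.1 on the opposite strand. The kits used do not mark strand, so reads of those stretches cannot be told apart.

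Among the inhibitors, Tnfaip3 showed the largest difference. Tnfaip3 encodes A20, which edits ubiquitin chains on signalling proteins upstream of the IkB kinase (chromosome 10, 19000910 to 19015657). It stood at 929 and 381 CPM in omental tumor, against 179 and 111 CPM in spleen. The lower omental library was still above the higher spleen library. On the log2 scale the difference was 2.18 (SE 0.86, adjusted p = 0.280), with omental to spleen ratios of 5.20 in mouse 2 and 3.42 in mouse 3. Over the other settings and tools its adjusted p ran from 0.0647, in DESeq2, to 1. Nfkbia encodes IkB-alpha, the classical cytosolic inhibitor (chromosome 12, 55489410 to 55492647), and had 836 and 2072 CPM in omental tumor, against 488 and 626 CPM in spleen. The omental library of mouse 3 was by far the highest, and the groups did not overlap (log2 fold change 1.38, SE 0.97, adjusted p = 0.655). Without that library the log2 fold change of Nfkbia was 0.50.

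The nuclear IkB genes were uneven in how closely the animals matched. Nfkbid encodes IkB-NS, which in mice is known to assist Foxp3 induction with Rel (chromosome 7, 30421732 to 30428746). It had 286 and 237 CPM in omental tumor, against 126 and 96.4 CPM in spleen. The omental to spleen ratio was 2.27 in mouse 2 and 2.46 in mouse 3, so both animals gave nearly the same difference (log2 fold change 1.23, SE 0.77, adjusted p = 0.598). Nfkbiz encodes IkB-zeta, a nuclear cofactor induced by interleukin-1 and Toll-like receptor signals (chromosome 16, 55811375 to 55838899). It had 309 and 274 CPM in omental tumor, against 139 and 38.6 CPM in spleen. The omental libraries were close and the spleen libraries were not (log2 fold change 1.72, SE 0.78, adjusted p = 0.408). Leaving out a library moved that value between 1.31 and 2.86. Bcl3 encodes a nuclear partner of p50 and p52 homodimers (chromosome 7, 19808462 to 19822770) and was the lowest inhibitor gene, at 7.22 and 45.8 CPM in omental tumor, against 7.44 and 11.7 CPM in spleen. The mouse 2 libraries were level and the difference came from mouse 3 (log2 fold change 1.45, SE 0.84, adjusted p = 0.560). Its 55 counts in the omental library of mouse 2, the fewest of any member, carry a 95% exact Poisson interval of 5.44 to 9.40 CPM for counting error only. Bcl3 shares 161 exonic bases with Gm16175 on the opposite strand.

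**Figure D3:**
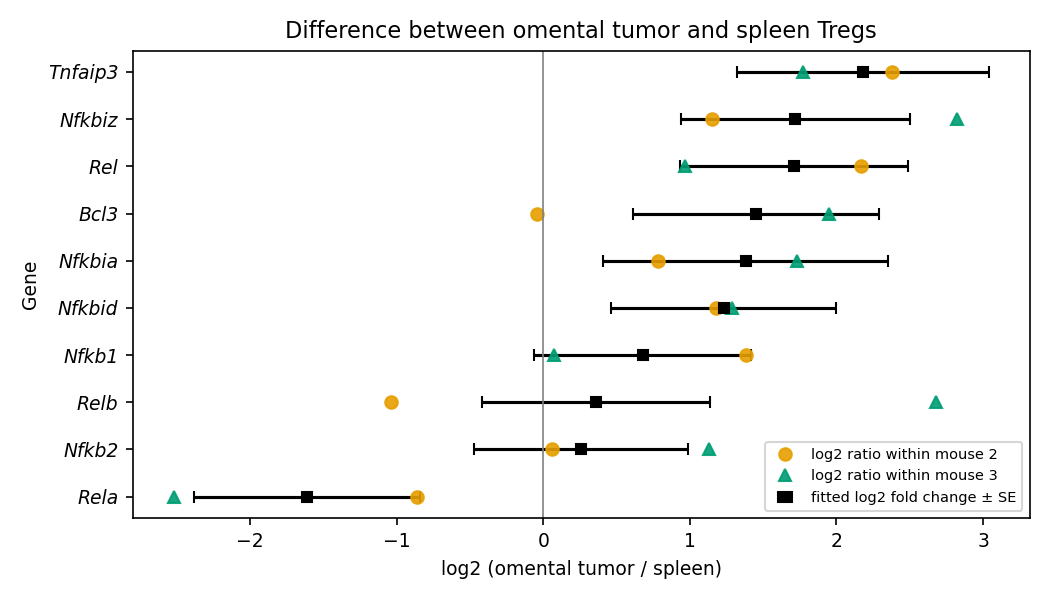
Omental tumor over spleen on the log2 scale for each gene, with the fitted log2 fold change and its SE as black squares and bars, and the ratio within each mouse (log CPM with a prior count of 2) as circles for mouse 2 and triangles for mouse 3. For 7 genes both mice lie above 0, for Rela both lie below, and for Relb and Bcl3 the mice fall on opposite sides.

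Within the animals, 7 members were higher in omental tumor in both mice and 1, Rela, was lower in both. Among all genes tested, 36.9% were higher and 31.6% lower in both mice. The 2 members with opposite signs were Relb, whose log2 ratio was -1.04 in mouse 2 but 2.68 in mouse 3, and Bcl3, at -0.04 and 1.95. Over the members the median log2 ratio was 0.96 in mouse 2 and 1.51 in mouse 3, against 0.0700 and 0.0906 over all genes. Tnfaip3, Rel and Nfkb1 had the larger ratio in mouse 2, 6 members had the larger ratio in mouse 3, and Rela lay further below 0 in mouse 3.

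Levels per kilobase of exon put Nfkbia first in both tissues, at 903 ± 543 CPM per kilobase in omental tumor and 346 ± 60.4 in spleen (SD, n = 2). In omental tumor Nfkbid (112 ± 14.9), Tnfaip3 (90.6 ± 53.7) and Nfkbiz (58.0 ± 4.92) came next, followed by Rel (38.1 ± 22.4), Nfkb2 (24.6 ± 18.1) and Rela (24.2 ± 12.9). Bcl3 (10.7 ± 11.0), Nfkb1 (9.56 ± 2.10) and Relb (7.38 ± 3.66) were the lowest there. The low place of Nfkb1 in both tissues rests on its merged exon length of 12061 bases, the longest of the members. It could differ with the length of a single transcript. Only the steps from Nfkbia to Nfkbid and from Nfkbiz to Rel separated neighbours whose libraries did not overlap. In spleen Rela was second (73.8 ± 18.8) and Nfkbid came after it (47.5 ± 9.04), each apart from its neighbours. Below them Nfkb2 (20.6 ± 21.5), Tnfaip3 (20.1 ± 6.59), Nfkbiz (17.7 ± 14.1) and Rel (11.6 ± 0.401) were followed by Nfkb1 (5.97 ± 2.46), Relb (5.73 ± 5.97) and Bcl3 (3.87 ± 1.22). Of these lower steps, the one from Rel to Nfkb1 alone separated libraries that did not overlap. Rela was thus ahead of Tnfaip3, Nfkbiz and Rel in spleen and behind all 3 in mean level in omental tumor.

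The genes most like Tnfaip3, the member with the smallest p-value, were sought among the 6472 genes whose tissue mean passed 32 CPM in at least 1 tissue, by the distance between log CPM profiles over the 4 libraries. The 5 nearest were H2-Aa, Lamb1, H2-Eb1, Plcg2 and Lmna, at distances of 0.465 to 0.578. H2-Aa and H2-Eb1 encode chains of MHC class II. H2-Aa stood at 163 and 59.7 CPM in omental tumor, against 20.1 and 15.7 CPM in spleen, with the omental library of mouse 2 highest, as for Tnfaip3. Lamb1 encodes a laminin chain, Plcg2 a phospholipase of B cell and myeloid receptor signalling, and Lmna the nuclear lamins A and C.

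Genes that carry signals to NF-kB had mostly negative differences, and none passed the test in edgeR. Of 25 canonical kinase and adaptor genes, 20 had negative log2 fold changes, and edgeR called 0. The median was -0.97, against 0.126 over all genes. At an unadjusted p under 0.05, 8 were lower and 0 higher, where 5.28% of all genes were lower. That count of 8 lower moved to 4 with RLE factors, 5 with the mouse block and 2 with upper-quartile factors, library totals, a minimum count of 50, or without omental mouse 3 or either spleen library. The median was -0.45 with upper-quartile factors, where the median of all genes was 0.62. In DESeq2 the genes that passed were Traf5, an adaptor of TNF-family receptors (adjusted p = 0.0191 in DESeq2), and Prkcq, the protein kinase C that links the T cell receptor to NF-kB (adjusted p = 0.0455 in DESeq2), and limma-voom called neither. Traf5 stood at 24.7 and 12.9 CPM in omental tumor, against 89.9 and 110 CPM in spleen. Prkcq stood at 86.5 and 44.3 CPM in omental tumor, against 357 and 217 CPM in spleen. In both genes the omental libraries lay below both spleen libraries, and in edgeR their adjusted p was 0.105 and 0.221. Tab1, which encodes a partner of the kinase TAK1, had 26.5 and 6.84 CPM in omental tumor, against 45.9 and 63.3 CPM in spleen (log2 fold change -1.69, adjusted p = 0.421). T lineage genes leaned the same way. Among 11 Treg and T cell markers 10 were negative and edgeR called 0, none below an unadjusted p of 0.05. Their median was -0.64, and they summed to 5609 and 5955 CPM in omental tumor, against 6399 and 10390 CPM in spleen. Their part in the activator values was not tested.

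Other IkB and A20-linked genes showed no common direction. Of 18, edgeR, DESeq2 and limma-voom each called 0, and 11 were negative. The median was -0.25, against 0.126 over all genes. With upper-quartile factors it was 0.22, where the median of all genes was 0.62, so the list lay below all genes in both settings. At an unadjusted p under 0.05 in edgeR there were 4 lower genes and 0 higher, against 5.28% and 4.97% of all genes. The counts were 1 lower and 2 higher with upper-quartile factors, 3 of each without omental mouse 2, 1 lower without omental mouse 3 or spleen mouse 2, and 0 without spleen mouse 3. Tnfaip8l2, which restrains T cell and Toll-like receptor signals, had 29.7 and 47.1 CPM in omental tumor, against 145 and 200 CPM in spleen (log2 fold change -2.17, adjusted p = 0.178). Pdlim2, which promotes the removal of nuclear Rela protein, had 43.2 and 39.7 CPM in omental tumor, against 103 and 166 CPM in spleen (-1.69, adjusted p = 0.385). Itch, a ubiquitin ligase that works with A20, stood at 120 and 36.0 CPM in omental tumor, against 210 and 271 CPM in spleen. Tnip1, which encodes an A20-binding protein, stood at 138 and 30.1 CPM in omental tumor, against 188 and 292 CPM in spleen. For these 4 genes each omental library lay below each spleen library.

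Non-canonical pathway genes were mixed. Of 10, 0 were called by edgeR, DESeq2 or limma-voom, 6 were positive, and the median was 0.62. Without the omental library of mouse 2 the median was -0.19, where the median of all genes was -0.32. With all libraries the median of all genes was 0.126. In edgeR, 1 was higher (Ltbr) and 1 lower (Cd27) at an unadjusted p under 0.05, against 4.97% and 5.28% of all genes. Tnfrsf9, which encodes 4-1BB, had 1877 and 1333 CPM in omental tumor, against 389 and 649 CPM in spleen (log2 fold change 1.63, adjusted p = 0.585). Tnfrsf4, which encodes OX40, had 1258 and 2931 CPM in omental tumor, against 531 and 1118 CPM in spleen (1.34, adjusted p = 0.679). In both, each omental library was above each spleen library. Cd27 was lower, at 111 and 128 CPM in omental tumor, against 294 and 433 CPM in spleen (-1.60, adjusted p = 0.470). Ltbr, the lymphotoxin beta receptor gene, was close to the floor, at 1.44 and 4.05 CPM in omental tumor, against 0.391 and 0.0915 CPM in spleen. These rest on 11 and 16 counts in omental tumor and on 4 counts and 1 count in spleen. DESeq2 gave Ltbr no adjusted p.

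**Figure D4:**
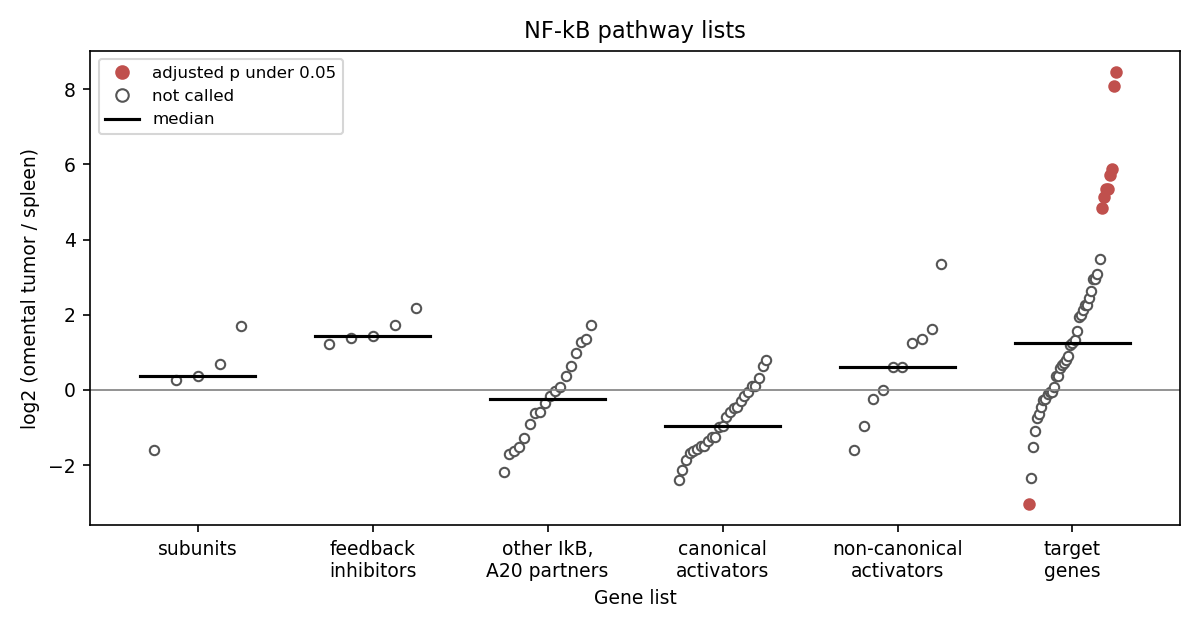
Log2 fold change (omental tumor over spleen) of every tested gene in 6 NF-kB lists, with filled points for adjusted p under 0.05 in edgeR, open points for the rest and bars at the medians. Target genes hold all 9 called genes, 8 higher and 1 lower, and canonical activators have the lowest median, at -0.97.

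Target genes of NF-kB outside the set held called genes. Of 43 tested, 8 rose and 1 fell, and the median of the list was 1.24 on the log2 scale. Over all genes tested 1.16% were called higher and 0.263% lower. No target gene was called without a filter on low counts or at a minimum count of 50, and 3 were called higher with library totals. The risers were Cxcl2, Il1b, Ccl3, Ccl4, Ier3, Ptgs2, Cxcl10 and Cxcl1, mostly chemokine and cytokine genes, and Lta fell, the gene of the cytokine lymphotoxin alpha. Lta had 6.43 and 15.7 CPM in omental tumor, against 89.5 and 87.9 CPM in spleen (log2 fold change -3.03, adjusted p = 0.0180), and was not called in any fit that left out a library, nor with RLE or upper-quartile factors. Of these 9 genes DESeq2 did not call Ccl3 (adjusted p = 0.0760), Ccl4 (adjusted p = 0.0793) or Ier3 (adjusted p = 0.119), and it called other targets instead, Il6, Gadd45b and Tnfaip2 higher and Vcam1 lower. Limma-voom did not call Cxcl1 (adjusted p = 0.116) and added Gadd45b. When each library was left out in turn, the log2 fold change ran from 5.48 to 10.7 for Cxcl2 and from 4.41 to 9.01 for Il1b. For Ccl3 it ran from 1.98 to 6.62, and for Ccl4 from 1.4 to 6.7. Ptgs2, which encodes the prostaglandin-making enzyme COX-2, had 34.4 and 119 CPM in omental tumor, against 2.15 and 1.56 CPM in spleen (log2 fold change 5.36, SE 0.92, adjusted p = 3.42e-06). Ier3, an early response gene that modulates cell survival, had 10.4 and 273 CPM in omental tumor, against 2.54 and 5.49 CPM in spleen (5.13, SE 0.88, adjusted p = 3.15e-06). Cxcl10, the interferon-linked ligand of CXCR3, had 128 and 971 CPM in omental tumor, against 8.71 and 29.3 CPM in spleen (4.85, SE 0.93, adjusted p = 5.46e-05). Cxcl1, a neutrophil attractant, had 7.88 and 22.3 CPM in omental tumor, against 0.391 and 0.0915 CPM in spleen (5.88, SE 1.29, adjusted p = 0.00106), where the spleen values rest on 4 counts and 1 count. In all 4 the omental library of mouse 3 was the highest. Without it the adjusted p was 0.0313 for Ptgs2, 0.802 for Ier3, 0.145 for Cxcl10 and 0.179 for Cxcl1, and 3 target genes were called higher in all. Without the spleen library of mouse 2, 2 were called higher, and without the spleen library of mouse 3, 6. In those fits the adjusted p was 0.0649 and 0.0250 for Ptgs2, 0.198 and 0.0186 for Ier3, 0.352 and 0.0765 for Cxcl10, and 0.0649 and 0.0186 for Cxcl1.

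Some other target genes overlapped between the tissues. Icam1 had 363 and 196 CPM in omental tumor, against 200 and 383 CPM in spleen. Traf1 had 642 and 395 CPM in omental tumor, against 331 and 468 CPM in spleen, and Birc3 had 350 and 200 CPM against 232 and 336 CPM in spleen. In each of these 3 genes, chosen after their values were seen, the mice pointed in opposite directions.

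Markers of other cells moved in the same libraries. Neutrophil markers summed to 155 and 1457 CPM in omental tumor, against 101 and 61.5 CPM in spleen. Of 7 tested, 4 were called higher, with S100a9 at 1.58 and 475 CPM in omental tumor, against 9.10 and 7.50 CPM in spleen, while Elane was at 0 in all 4 libraries. Macrophage and monocyte markers summed to 521 and 908 CPM in omental tumor, against 235 and 458 CPM in spleen, with 2 of 12 called higher and 0 at a count of 0. Lyz2, the most abundant of them, had 250 and 297 CPM in omental tumor, against 6.85 and 61.8 CPM in spleen. The list was divided, since 6 of its 12 genes were negative, Csf1r, Mrc1, Adgre1, C1qa, C1qb and C1qc. Csf1r had 38.7 and 14.4 CPM in omental tumor, against 69.9 and 110 CPM in spleen. Fibroblast, mesothelial and fat cell markers summed to 194 and 29.6 CPM in omental tumor, against 20.6 and 18.9 CPM in spleen, with 1 of 6 called higher. Dendritic cell markers summed to 107 and 49.4 CPM in omental tumor, against 39.3 and 16.9 CPM in spleen, and 0 of 7 were called. B cell markers reached at most 80.2 CPM in sum in any library, CD8 and NK cell markers 57.2 CPM, mast cell and basophil markers 42.8 CPM and red cell markers 5.51 CPM, with 0 called. Each of these highest sums was in the omental library of mouse 2. Genes that follow tissue handling summed to 2258 and 2683 CPM in omental tumor, against 1718 and 1118 CPM in spleen. This list was divided too, since 4 of its 12 genes were negative, Zfp36, Btg2, Jun and Ier2. Zfp36 had 263 and 248 CPM in omental tumor, against 353 and 438 CPM in spleen. Of those 12, 2 were called higher, Atf3 (63.3 and 119 CPM in omental tumor, against 1.37 and 0.824 CPM in spleen) and Dusp1 (31.4 and 451 CPM in omental tumor, against 23.6 and 8.69 CPM in spleen), and their most abundant gene, Junb, had 1137 and 981 CPM in omental tumor, against 584 and 104 CPM in spleen. The calls of the 4 neutrophil markers, of the fibroblast marker Col3a1 and of Dusp1 were lost with mouse as a block. Nfkbia and Bcl3 were highest in the omental library of mouse 3, as was Relb by a narrow margin. The sums of the neutrophil, macrophage and handling genes were highest there too. Tnfaip3, Rel, Nfkb1, Nfkbid and Nfkbiz were highest in the omental library of mouse 2, as was Nfkb2 by a narrow margin. So were the summed markers of fibroblast, dendritic, B, CD8 and NK, mast and red cells. The part of these other cells and of handling in the NF-kB values was not tested.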

How the data were processed

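The deposited values are raw read counts per gene symbol, made by the authors with Trim Galore, TopHat2, SAMtools and HTSeq on build mm10, per the submitters' processing notes; the sources used here name no version, annotation or strand setting. Per the labels' protocols, libraries were made by SMART-seq v4 and Nextera XT. HTSeq's 5 summary entries name no gene and stayed out of library sizes and tests. Genes took 17.1% and 22.2% of entries in omental tumor and 24.9% and 46.0% in spleen.

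The test used edgeR 4.0.16 under R 4.3.3: filterByExpr (minimum count 10), TMM factors, and glmQLFit and glmQLFTest with tissue as the term, 2 libraries per tissue, Benjamini-Hochberg adjustment over 16322 genes at 0.05. SE is the absolute log2 fold change over the square root of F. The prior degrees of freedom were infinite, so SE and p do not measure a gene's own spread. Alternatives used DESeq2 1.42.0, limma-voom (limma 3.58.1), other scalings and filters, a mouse block and each library left out. On simulated data with the spread taken from these libraries, the test called 0% of genes changed 2-fold and 4% of those changed 4-fold. It called 50% at 8-fold and 78% at 16-fold. Changes of 4-fold or less were thus mostly missed.

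Mouse numbers mark the same animal in both tissues and so pair the libraries; deviations from tissue means correlated at 0.234 over genes. Exon lengths and coordinates are from GENCODE M21 (GRCm38, the same assembly as mm10), promoters from RefSeq. Named genes were the 10 members, the 4 smallest p-values and any called gene of each pathway list, the most abundant markers, and the 5 genes most like the leading member; others are said to be chosen after their values were seen. Atf3 and Dusp1 are such additions, and 1 gene that the rule names is not reported here. Members and lists were chosen with earlier results of these data known.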

Additional observations from a re-analysis of the deposited data

Results flagged for a closer look

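Alignments that were not unique, which enter no gene count, took 33.52% of entries (mouse 2) and 49.87% (mouse 3) for omental tumor, against 30.25% and 28.01% for spleen. They stood out because both omental values exceed both spleen values, in entries outside the gene counts.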

How the results depend on the processing

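No member was called under any of the 13 alternatives, and 125 of the 130 member values kept their direction. The exceptions arose when a library was left out. Nfkb2 was -0.81 without omental mouse 2 and -0.45 without spleen mouse 3, Relb was -0.33 without omental mouse 3 and -0.07 without spleen mouse 3, and Bcl3 was -0.50 without omental mouse 3. Their highest such values were 2.14, 2.23 and 2.29. Rel ran from 0.92 to 2.16, Tnfaip3 from 1.38 to 2.61 and Rela from -2.31 to -1.13. Upper-quartile factors and library totals put the median of all genes at 0.62 and 0.40, against 0.13 with TMM. Relative to that median Rel lay between 1.51 and 1.60 and Rela between -1.83 and -1.68 over the 4 scalings.

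Over all genes, 190 higher and 43 lower calls (233) became 210 and 13 with upper-quartile factors, 26 and 2 (28) with library totals, 4 and 0 (4) at a minimum count of 50, and 0 and 0 without a filter, where 1903 genes had an unadjusted p under 0.05. DESeq2 gave 210 and 153 (363), and limma-voom 107 and 56. Leaving out each library gave 53 to 248 higher, 6 to 25 lower and 60 to 273 in all, with the spread for the single library taken from the other tissue. The causes were not tested. The replicate block by mouse called 261 genes and changed no member's call. Both omental libraries held fewer counts than either spleen library, which limits low genes such as Bcl3, Relb and Ltbr there.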

Other observations

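Some NF-kB genes differed more between the spleen libraries of the 2 mice than between the tissues. In spleen, Nfkb2 stood 6.69 times and Relb 6.60 times higher in mouse 2 than in mouse 3, and Nfkbiz 3.59 times. The lymphotoxin beta gene Ltb (686 and 74.1 CPM), the adaptor gene Tradd (40.3 and 6.04 CPM) and the early response gene Ier2 (188 and 20.8 CPM) leaned the same way, by 9.25, 6.68 and 9.05 times. In omental tumor the same ratios were 3.17 for Nfkb2, 0.481 for Relb, 1.13 for Nfkbiz, 0.894 for Ltb, 0.538 for Tradd and 0.885 for Ier2. Of all genes tested, 14.5% stood over 5 times higher in the spleen library of mouse 2, so the lean is not particular to these genes, which were chosen after their values were seen. Rel, by contrast, had a spleen ratio of 1.05, and Nfkbid 1.31.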
